A study of Mus musculus with 10 samples.

Results

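The interleukin-1 (IL-1) system was followed through 10 genes matched by symbol among the 46078 genes counted: the cytokines Il1a and Il1b, the antagonist Il1rn, the receptors Il1r1 and Il1r2, the adaptor Myd88, and the inflammasome genes Nlrp3, Pycard, Casp1 and Gsdmd. All 10 passed the filter on low counts, as did 16909 genes in all. RNA came from whole back skin of C57BL/6 mice kept free of specific pathogens and killed at 21 days of age. The SA group (5 libraries) had been colonised as newborns with Staphylococcus aureus SF8300 and the SE group (5 libraries) with Staphylococcus epidermidis Tü3298, in both cases by 100 µl of suspension spread on the skin every other day between day 3 and day 19. The tissue was a lightly defatted 8 mm punch, so it mixed epidermis, hair follicles, dermis and resident immune cells. The comparison asks how skin that carried the pathogen differs from skin that carried the commensal. Skin without added bacteria was not analysed here, and each difference is therefore between the colonised groups. Whether every library is from its own mouse is not stated in the labels, and p-values therefore reflect the scatter among these libraries, which may be technical in part.

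IL-1 alpha and IL-1 beta are alarm cytokines that bind the same receptor, IL1R1, which signals through MYD88 to NF-kB and calls neutrophils into tissue. IL-1 alpha is held ready in keratinocytes, whereas IL-1 beta is made on demand, mostly by myeloid cells, as a precursor that caspase-1 cleaves within an inflammasome. The antagonist IL-1RA and the decoy receptor IL1R2 hold the signal back, and in mouse skin the IL-1 pathway is known for its role in the defence against S. aureus.

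Levels are given as CPM, a gene's reads as a rate per fixed total of gene-assigned reads, with TMM scaling. Gene-assigned reads lay between 21140654 and 25417851 per library, so that 1 CPM stood for more than 20 reads. Differences are log2 SA minus SE from edgeR's quasi-likelihood test over all tested genes, each followed by its standard error after ±, and a call is a Benjamini-Hochberg adjusted p under 0.05. SE 3, 4 and 5 were set off from the remaining 7 libraries along the first principal component (45.2% of the variance), at 37.9 to 54.3 against -32.5 to -9.34. Summed markers of hair shaft and inner root sheath ran from 409 to 2716 CPM in these 3 libraries, from 30.9 to 90.7 in SE 1 and SE 2 and from 25.4 to 64.2 in SA. The part of this split in the results was not tested, and the differences of the members and the medians of the lists are given with and without those libraries. Ddx3y, a Y-linked gene, was above Xist in 3 libraries (SA 1, SA 3 and SE 3), so the groups held 2 and 1 male-pattern libraries. Keratinocyte markers were abundant throughout, at 10847 to 16568 CPM in sum.

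Under the edgeR test 0 of the 10 genes was called, where 0.0769% of all tested genes were (13 genes). At an unadjusted edgeR p under 0.05 there were 2, Il1b with the higher mean in SA and Casp1 with the higher mean in SE, against 11.1% of all genes. DESeq2 called 1 of the 10, Il1b, and 1.75% of all genes it tested. None of the 10 had SA and SE libraries that did not overlap in CPM, against 2.05% of all genes. The median log2 difference of the 10 genes was 0.09, with 7 above 0, and that of all tested genes was -0.01. Without SE 3, 4 and 5 the median of the 10 was -0.02, with 5 above 0.

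**Figure D1:**
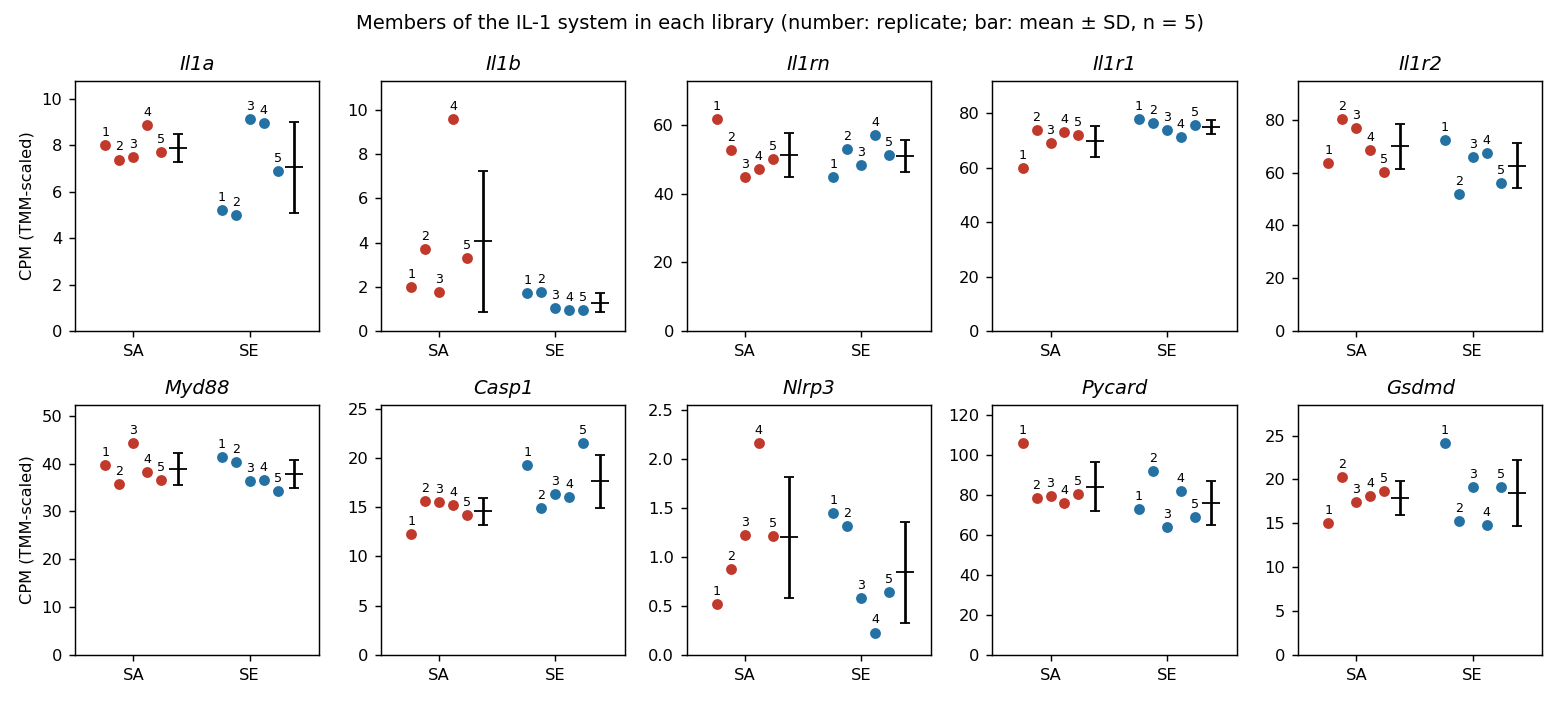
CPM of the 10 genes in each library, one panel per gene with an axis from 0. Points are libraries with their replicate number, red for SA and blue for SE, and bars are the mean ± SD of 5 libraries. Il1b reached 9.57 CPM in SA 4, while Il1rn and Myd88 covered much the same range in both groups.

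The cytokine genes are neighbours on mouse chromosome 2, both on the minus strand. Il1a (ENSMUSG00000027399) lies at chr2:129299610-129309972 and Il1b (ENSMUSG00000027398) at chr2:129364570-129371139 in GRCm38, 54597 bases apart. Their 250 bases before the RefSeq start site (GRCm38.p6, minus strand, 5′ to 3′) are printed because the pair differed in its pattern over the libraries, described below the sequences. Capitals mark matches on either strand to the TATA box, written TATAAA. They also mark the AP-1 motif, written TGANTCA. The C/EBP motif was written TTNNGNAA, and no match overlaps another in these windows. The windows are chr2:129309973-129310222 for Il1a and chr2:129371140-129371389 for Il1b.
Il1a: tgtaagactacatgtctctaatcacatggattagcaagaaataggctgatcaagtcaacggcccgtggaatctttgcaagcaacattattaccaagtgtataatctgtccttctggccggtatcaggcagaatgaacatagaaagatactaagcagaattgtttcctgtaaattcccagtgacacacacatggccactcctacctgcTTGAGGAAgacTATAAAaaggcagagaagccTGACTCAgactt
Il1b: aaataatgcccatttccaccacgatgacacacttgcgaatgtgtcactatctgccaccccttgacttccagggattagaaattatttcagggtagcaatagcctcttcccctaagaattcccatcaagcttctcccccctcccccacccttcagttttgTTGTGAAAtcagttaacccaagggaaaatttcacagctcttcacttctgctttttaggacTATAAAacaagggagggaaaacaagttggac
Both windows held a TATA box, 32 and 31 bases before the start, and a C/EBP match that began 43 bases before the start in Il1a and 91 bases before it in Il1b. An AP-1 match 12 bases before the start was found in Il1a. Over windows of 300 bases, 250 before and 50 after the start, TATAAA was present in 13.6% of 32851 mouse promoters, the AP-1 letters in 7.81% and the C/EBP letters in 40.7%. An NF-kB consensus (5.8% of promoters) was matched in Nlrp3, where it was found in 1 of the 13 windows available for 9 of the 10 genes. A match describes letters and not a bound site.

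Il1b was the member with the widest difference. Its level was 2.02, 3.70, 1.75, 9.57 and 3.31 CPM in SA 1 to 5, and 1.73, 1.76, 1.07, 0.961 and 0.960 CPM in SE 1 to 5. SA 4 stood above every other library and SA 1, SA 2 and SA 5 above every SE library, while SA 3 lay within the SE range, so the groups overlapped by that library. The means were 4.07 ± 3.18 and 1.30 ± 0.412 CPM (SD, n = 5 each), from 461 and 149 reads in all. The log2 difference was 1.64 ± 0.445 (95% interval 0.67 to 2.61), a 3.12-fold ratio, with an edgeR p of 0.00315 and an adjusted p of 0.201. That p ranked 264 among the 16909 genes tested, and the interval is not adjusted for the number of genes.

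The Il1b call depended on the tool. DESeq2 gave a log2 difference of 1.65 with an adjusted p of 0.0125, and the authors' deposited table gave 0.65 ± 0.17 with an adjusted p of 0.0190, a table in which 1.15% of genes passed the same threshold and Il1b was the only one of the 10. How the fold changes of that table were derived is not stated in the labels. Without SA 4 the edgeR difference fell to 1.05 (adjusted p 0.345). Without SE 3, 4 and 5 it was 1.23 ± 0.611 (interval -0.12 to 2.58, adjusted p 0.575). Over the 10 edgeR fits that each left out 1 library, the adjusted p lay between 0.109 and 0.461.

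Il1a behaved differently from its neighbour. It measured 8.01, 7.39, 7.50, 8.89 and 7.72 CPM in SA, and 5.24, 5.01, 9.13, 8.97 and 6.90 CPM in SE. The SA libraries were close together, whereas SE 1, SE 2 and SE 5 lay below all SA libraries and SE 3 and SE 4 above them. The means were 7.90 ± 0.603 and 7.05 ± 1.97 CPM, and edgeR's log2 difference was 0.17 ± 0.178 (interval -0.22 to 0.55, edgeR adjusted p 0.737). Without SE 3, 4 and 5 it was 0.63 ± 0.153 (interval 0.29 to 0.97, adjusted p 0.173), and the groups then did not overlap, as was so for 14.3% of all genes tested in those 7 libraries. In SE 1 and SE 2 Il1b was higher than in SE 3, 4 and 5, the reverse of the order of Il1a.

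Per length, Il1b was below Il1a in 9 of 10 libraries. The ratio of Il1b to Il1a was 0.26, 0.518, 0.242, 1.11 and 0.444 in SA 1 to 5 and 0.342, 0.363, 0.121, 0.111 and 0.144 in SE 1 to 5. Only SA 4 had more Il1b than Il1a. Both genes share exonic sequence with an antisense transcript, Il1a over 11.2% of its exonic length (Gm14023, 11 to 25 reads per library) and Il1b over 1.31% (Il1bos, 19 to 41 reads). Whether strand was used in counting is unknown from the labels, so reads of such pairs cannot be told apart.

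Il1rn, which encodes the receptor antagonist and lies on the same chromosome (chr2:24336853-24351494), was level between groups. It measured 61.6, 52.6, 44.8, 47.1 and 50.1 CPM in SA and 45, 52.8, 48.3, 57.0 and 51.3 CPM in SE. SA 1 was the highest and SA 3 the lowest library, and the ranges overlapped almost wholly. The log2 difference was 0.01 ± 0.095, and its interval of -0.20 to 0.22 bounds the change under this test (edgeR adjusted p 0.972). Set against the agonists per length, the ratio of Il1rn to Il1a plus Il1b was 2.18, 1.67, 1.72, 0.894 and 1.6 in SA and 2.28, 2.76, 1.68, 2.04 and 2.32 in SE. SA 4 was the only library with a ratio under 1, and the mean ratio was 1.61 ± 0.460 in SA and 2.22 ± 0.395 in SE. The size of the ratio depends on the annotated exon lengths, 5535 bases for Il1rn, 1974 for Il1a and 1907 for Il1b. Before length scaling SA 4 had 1044 reads of Il1rn, 197 of Il1a and 212 of Il1b. These ratios are described and were not tested.

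The receptor genes stand side by side on chromosome 1, Il1r2 at chr1:40074079-40125231 and Il1r1 at chr1:40225080-40317257. Il1r1, the signalling receptor, measured 59.8, 74.0, 69.2, 73.1 and 72.2 CPM in SA and 77.8, 76.5, 73.9, 71.2 and 75.5 CPM in SE. It varied least of the 10 genes within SE (coefficient of variation 3.4%), and SA 1 was its lowest library. SA minus SE was -0.11 ± 0.0696 on the log2 scale (interval -0.26 to 0.05, edgeR adjusted p 0.581). Without SE 3, 4 and 5 the 2 remaining SE libraries lay above all SA libraries, at a log2 difference of -0.14 (edgeR adjusted p 0.699). In those 7 libraries the groups did not overlap for 14.3% of all tested genes.

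Il1r2, the decoy that binds IL-1 without signalling, measured 63.8, 80.2, 76.9, 68.7 and 60.2 CPM in SA and 72.2, 51.8, 65.8, 67.3 and 56.2 CPM in SE. SA 2 and SA 3 were highest and SE 2 lowest, with overlapping ranges. For Il1r2 the groups differed by 0.16 ± 0.109 on the log2 scale (interval -0.08 to 0.40, edgeR adjusted p 0.595). Per length the decoy was above the signalling receptor in every library, by 2.78 to 3.71 times in SA and 2.26 to 3.15 times in SE. This rests on the annotated exon lengths, 1908 bases for Il1r2 and 6363 for Il1r1. In CPM the means of Il1r2 and Il1r1 were 70.0 and 69.6 in SA, and 62.6 and 75.0 in SE. Myd88, the adaptor that carries the signal of IL1R1 and of most Toll-like receptors, measured 35.7 to 44.3 CPM in SA (median 38.3) and 34.3 to 41.5 CPM in SE (median 36.5). Its log2 difference was 0.04 ± 0.08 (interval -0.13 to 0.22, edgeR adjusted p 0.862), and 11.3% of its exonic length overlaps Acaa1a on the opposite strand, a gene with 1198 to 1505 reads per library.

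**Figure D2:**
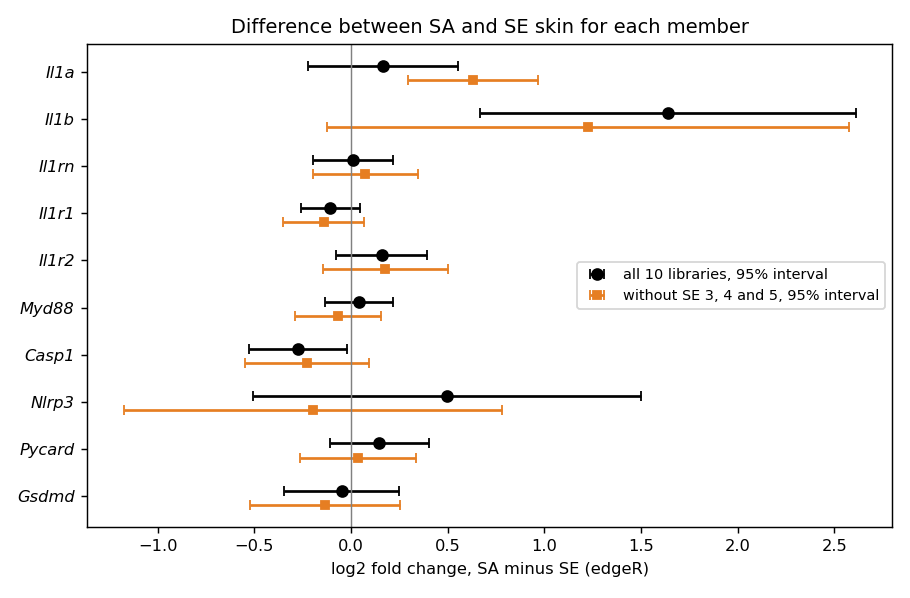
Log2 fold change, SA minus SE, of each gene with its 95% interval from edgeR, in black over all 10 libraries and in orange without SE 3, 4 and 5. Il1b lies at 1.64 in black and 1.23 in orange, and Il1a moves from 0.17 to 0.63.

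Without SE 3, 4 and 5 the other members stood at 0.07 for Il1rn, 0.18 for Il1r2, -0.07 for Myd88, -0.23 for Casp1, 0.04 for Pycard and -0.14 for Gsdmd, none of them called by edgeR. Of these, Myd88 alone changed sign.

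The inflammasome genes showed no common direction. Nlrp3, the sensor, was scarce, with 137 reads over the SA libraries and 98 over the SE libraries. It measured 0.516, 0.880, 1.23, 2.17 and 1.21 CPM in SA and 1.45, 1.32, 0.579, 0.229 and 0.640 CPM in SE. SA 4, the library with the most Il1b, was also the highest for Nlrp3, and SE 3, 4 and 5 were low. The log2 difference was 0.50 ± 0.46 (interval -0.51 to 1.5, edgeR adjusted p 0.696), and without SE 3, 4 and 5 it turned to -0.20 (adjusted p 0.933). Its coefficient of variation was 51.1% in SA and 61.7% in SE, among the widest of the 10 genes.

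Pycard encodes ASC, the adaptor that joins the sensor to caspase-1. It measured 106, 78.6, 79.6, 76.1 and 80.5 CPM in SA and 73.0, 91.8, 64.1, 82.0 and 68.9 CPM in SE. SA 1 stood alone above the rest and the other SA libraries lay within the SE range. Its log2 difference was 0.15 ± 0.116 (interval -0.11 to 0.40, edgeR adjusted p 0.643), and 12.8% of its exonic length overlaps the antisense gene Gm45205. SA 1 was also the lowest SA library for Il1r1, Casp1 and Gsdmd. In that library the macrophage gene Adgre1 was at 34.2 CPM, where other SA libraries reached 78.2 CPM. The cornified envelope gene Lor was at 962 CPM, where the lowest SA library had 550 CPM, and the part of these shifts in the member values was not tested.

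Casp1 encodes the protease that cleaves the IL-1 beta precursor and gasdermin D. It measured 12.2, 15.6, 15.5, 15.3 and 14.2 CPM in SA and 19.3, 14.9, 16.4, 16.0 and 21.5 CPM in SE. SE 1 and SE 5 were highest and SA 1 lowest, and SE 2 alone kept the ranges overlapping. The log2 difference was -0.28 ± 0.117 (interval -0.53 to -0.02), with an edgeR p of 0.0362 and an adjusted p of 0.422. It was negative in all 17 alternative fits, from -0.33 to -0.19, and passed the threshold in none of them.

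Gsdmd encodes the pore-forming protein through which mature IL-1 beta leaves the cell. It measured 15.0, 20.3, 17.4, 18.1 and 18.7 CPM in SA and 24.2, 15.2, 19.1, 14.8 and 19.1 CPM in SE. The SE libraries were more spread than the SA libraries and enclosed all of them. For Gsdmd the log2 difference was -0.05 ± 0.136 (interval -0.34 to 0.25, edgeR adjusted p 0.907).

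Levels can be set side by side between genes only per length, as CPM per kilobase of exon. On that scale, over all 10 libraries, Il1r2 was highest at 34.7 ± 4.64 (SD), before Pycard at 21.1 ± 3.11 and Myd88 at 14.9 ± 1.19. A middle tier followed with Il1r1 at 11.4 ± 0.796, Casp1 at 10.8 ± 1.73, Il1rn at 9.23 ± 0.958 and Gsdmd at 7.66 ± 1.19. The cytokines and the sensor were lowest, with Il1a at 3.79 ± 0.731, Il1b at 1.41 ± 1.36 and Nlrp3 at 0.252 ± 0.14. Of the neighbours in this order, only Myd88 with Il1r1 and Gsdmd with Il1a had ranges that did not overlap. On this scale the decoy receptor was thus highest of the 10 and the sensor lowest. The scale divides by all annotated exons of a gene, 1908 bases for Il1r2 and 3800 for Pycard, and the forms expressed were not measured. Before length scaling Pycard was above Il1r2, at means of 84.1 against 70.0 CPM in SA and 76.0 against 62.6 CPM in SE. The order of the genes therefore depends on the annotated lengths.

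**Figure D3:**
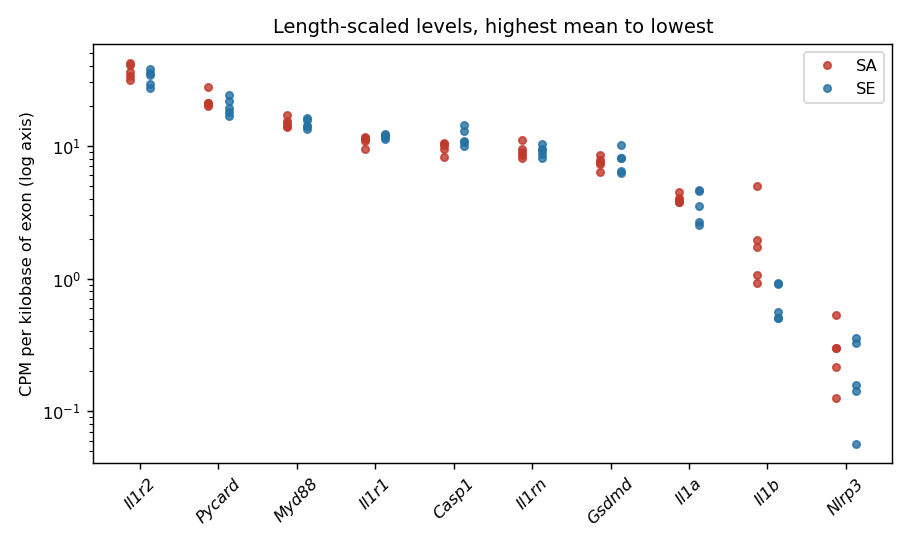
CPM per kilobase of exon of each gene in each library on a log axis, ordered by mean, red for SA and blue for SE. The order runs from Il1r2 (mean 34.7) to Nlrp3 (0.252), and the Il1b libraries spread from 0.503 to 5.02.

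The 45 pairs of members were compared by log2 CPM over the 10 libraries, and 0 passed an adjusted p of 0.05 by Pearson's r or by Spearman's rho (permutation tests, 100000 resamples). The smallest p was that of Casp1 and Pycard, with r = -0.754 (permutation p = 0.0154, adjusted p = 0.223) and rho = -0.782 (permutation p = 0.0111, adjusted p = 0.284). Without SA 1 and SE 5 its r was -0.487, and within the 7 libraries other than SE 3, 4 and 5 it was -0.823. Il1a and Il1b had r = 0.145 (permutation p = 0.696, adjusted p = 0.846) and rho = 0.006 (permutation p = 1, adjusted p = 1). Their r without SE 1 and SE 2 was 0.087, and in the 7 libraries it was 0.654.

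The set compared held 13936 tested genes with a mean of at least 1 CPM and a symbol other than a predicted-gene or RIKEN clone name. Within it, the patterns most like that of Il1b over the 10 libraries were those of Traf3ip3 (r = 0.946, rho = 0.903), Asic1 (r = 0.94, rho = 0.867) and Trpv2 (r = 0.929, rho = 0.842). These values fell to r = 0.796, 0.832 and 0.808 without SA 2 and SA 4. For Il1a they included Liph (r = 0.939, rho = 0.842) and Kprp (r = 0.934, rho = 0.891). These rested in part on SE 1 and SE 2, without which r was 0.678 and 0.677. All these genes were picked as the highest of many, they share the same libraries and depth, and no p is given.

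The other genes of the pathway were read from the same fit. Of 18 genes that carry or restrain the signal below the receptor, all tested, edgeR called 0 in either direction, with 8 above 0 and a median log2 difference of -0.01 (0.06 without SE 3, 4 and 5). At an unadjusted p under 0.05 there was 1, Peli1, a ubiquitin ligase that acts on IRAK kinases, at -0.37 ± 0.155 (edgeR adjusted p 0.419). Peli1 measured 88.4 to 105 CPM in SE 3, 4 and 5, and 54.1 to 66.8 CPM in the other 7 libraries. The co-receptor Il1rap stood at 0.05 ± 0.094, and the inhibitors Sigirr and Irak3 at 0.03 ± 0.12 and 0.12 ± 0.0879. The kinases Irak2 (0.16 ± 0.0928) and Chuk (-0.14 ± 0.0833) had the next smallest p.

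Among 18 inflammasome partners, 15 were tested and edgeR called 0, with 11 above 0 and a median of 0.09 (0.05 without SE 3, 4 and 5). At an unadjusted p under 0.05 there were 1 with the higher mean in SA and 2 with the higher mean in SE. Casp8, a caspase that can also process IL-1 beta, measured 32.8, 36.7, 37.3, 38.2 and 35.2 CPM in SA and 30.9, 32.5, 29.2, 29.7 and 30.1 CPM in SE. Every SA library was above every SE library, though SA 1 and SE 2 nearly met. The groups did not overlap in either direction for 2.05% of all tested genes. Its log2 difference was 0.24 ± 0.065, with an edgeR p of 0.00292 and an adjusted p of 0.196. Txnip, a thioredoxin-binding protein that has been linked to NLRP3, had a log2 difference of -1.03 ± 0.282 (edgeR adjusted p 0.205). It lay between 993 and 1114 CPM in SE 3, 4 and 5 and between 346 and 481 CPM in the other 7 libraries, where the SE and SA ranges overlapped. DESeq2 called Txnip (adjusted p 0.0144), as it did 1.75% of all genes it tested. Without SE 2 edgeR called it too (-1.22, adjusted p 0.0396), in a fit that called 152 genes against 13 over all libraries. That fit left out the SE library with the lowest Txnip (350 CPM), and its adjusted p is no separate support for a difference. The sensor Nlrp1b followed the same split, at -0.60 ± 0.251 (adjusted p 0.417), with 5.54 to 5.85 CPM in SE 3, 4 and 5 and 1.97 to 4.09 CPM elsewhere. The DNA sensor Aim2 (0.26 ± 0.142), the caspase Casp4 (0.20 ± 0.142) and the cytokine Il18 (0.09 ± 0.0995) did not pass the threshold.

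**Figure D4:**
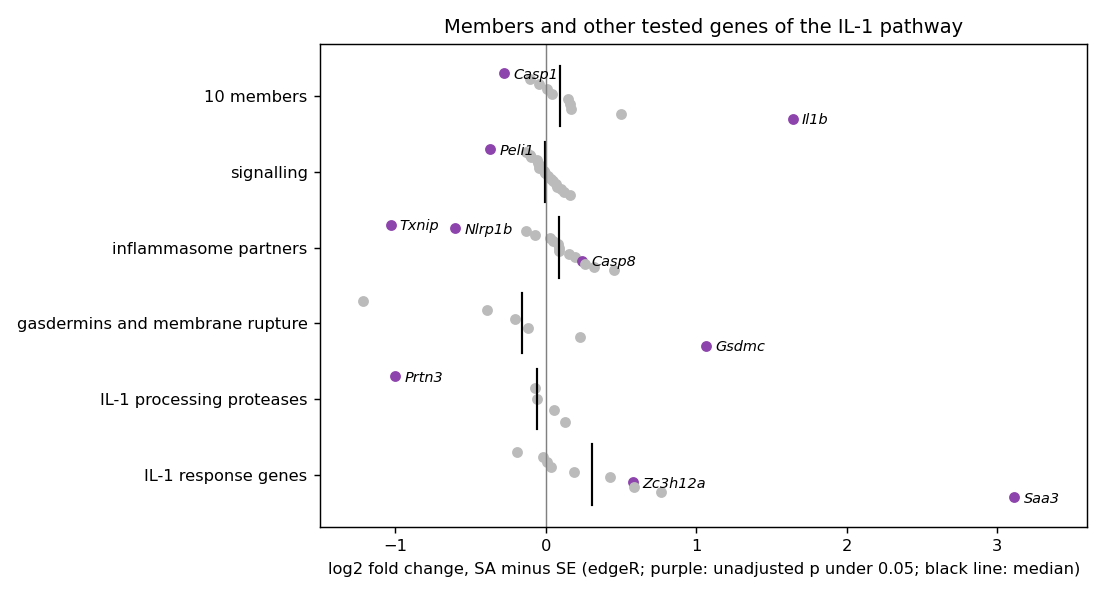
Log2 fold change, SA minus SE, of the tested genes in each list (dots), with the list's median as a black line and genes at an unadjusted edgeR p under 0.05 in purple. No dot passed the adjusted threshold, and over the members and the 5 pathway lists plotted the medians run from -0.16 (gasdermins) to 0.31 (response genes). The median of the response genes includes Saa3, which passed the count filter through SA.

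Of 9 gasdermin and membrane rupture genes in the table, 6 were tested and edgeR called 0 (1 at an unadjusted p under 0.05, Gsdmc), with 2 above 0 and a median of -0.16. Gsdma, a gasdermin of the epidermis, measured 78.4 to 86.1 CPM in SA, 51.8 and 53.7 CPM in SE 1 and SE 2, and 132 to 166 CPM in SE 3, 4 and 5. Gsdma2 followed the same order, at 6.14 to 11.4 CPM in SA, 1.73 and 1.54 CPM in SE 1 and SE 2, and 24.8 to 34.3 CPM in SE 3, 4 and 5. Thus SA lay between the 2 sets of SE libraries for both genes. Their log2 differences were -0.39 ± 0.285 and -1.21 ± 0.706 over all libraries, neither of them called. Without SE 3, 4 and 5 they were 0.64 and 2.34, with edgeR adjusted p of 0.0122 and 0.0094, and the median of the list was 0.41. That fit called 41 of 17614 genes and kept 2 SE libraries. It was chosen after seeing the data and left out the libraries in which both genes were highest, so these calls are a description of the split. Gsdmc, another gasdermin, was at 1.06 ± 0.375 (adjusted p 0.344), Dfna5, the gene of gasdermin E, at 0.23 ± 0.159, and Ninj1, whose protein ruptures the plasma membrane, at -0.12 ± 0.0855.

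Of 7 proteases other than caspase-1 that can cleave IL-1 precursors, 5 were tested and edgeR called 0 (1 at an unadjusted p under 0.05, Prtn3), with 2 above 0 and a median of -0.06 (-0.01 without SE 3, 4 and 5). Prtn3, a granule protease of myeloid cells, was at -1.0 ± 0.358 (edgeR adjusted p 0.351) from 49 and 99 reads. The calpains Capn1 (-0.06 ± 0.0752) and Capn2 (-0.07 ± 0.0883) and the mast cell chymase Cma1 (0.06 ± 0.165) were close to 0.

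Of 17 genes that IL-1 is known to induce, 10 were tested and edgeR called 0 (2 at an unadjusted p under 0.05, Zc3h12a and Saa3), with 8 above 0 and a median of 0.31 (0.33 without SE 3, 4 and 5). Saa3 entered the test through its SA libraries, so it carries no weight in these counts or in the median. Zc3h12a encodes regnase-1, an RNase that degrades cytokine transcripts. It measured 35.5, 35.7, 33.1, 29.7 and 38.5 CPM in SA and 18.2, 26.9, 22.8, 26.4 and 20.9 CPM in SE. Every SA library was above every SE library, where 2.05% of all tested genes had groups that did not overlap in either direction. For Zc3h12a the log2 difference was 0.58 ± 0.114 (edgeR adjusted p 0.0905). DESeq2 called Zc3h12a (adjusted p 0.00121), as it did 1.75% of all genes it tested. So did edgeR without SE 1 (0.51, adjusted p 0.0408) or without SE 2 (0.65, adjusted p 0.0396). Those 2 edgeR fits called 225 and 152 genes, against 13 over all libraries. No other edgeR fit with 1 library left out called Zc3h12a.

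Saa3, an acute phase protein gene, measured 6.75, 0.748, 2.02, 2.98 and 4.49 CPM in SA and 0.121, 1.54, 0.089, 0.137 and 0.0457 CPM in SE. The groups overlapped through SE 2, which was above SA 2. For Saa3 the log2 difference was 3.11 ± 0.792 (edgeR adjusted p 0.17), and without SE 2 it was 5.03 (adjusted p 0.022). SE 2 had 35 reads and the other SE libraries 1 to 3 each, so the gene passed the count filter through SA. The fit without SE 2 left out the only SE library above the floor, and its adjusted p is no separate support for a difference. Lcn2 (0.76 ± 0.351, adjusted p 0.453) and Ccl20 (0.59 ± 0.331, adjusted p 0.526) did not pass. Il6 was below the count filter, with 31 reads over SA and 33 over SE.

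Cxcl2, a neutrophil-attracting chemokine gene, had 107 reads in SA 4 and 1 to 6 reads in every other library, and was below the filter of the test. SA 4 was the library with the highest Il1b. In the same library Cxcl3 had 18 reads against 0 to 3 elsewhere, and Csf3, the gene of granulocyte colony-stimulating factor, 9 reads against 0 to 3. The last 2 genes were chosen after their values were seen. Saa3, S100a8 and S100a9 were not highest in SA 4 but in SA 1. Other response genes were not highest in SA 4 either. Cxcl1 had 4 reads there and 23 in SE 1, Il6 had 2 reads there and 11 in SA 1, and Ccl2 was at 2.71 CPM there and 6.51 CPM in SA 2.

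**Figure D5:**
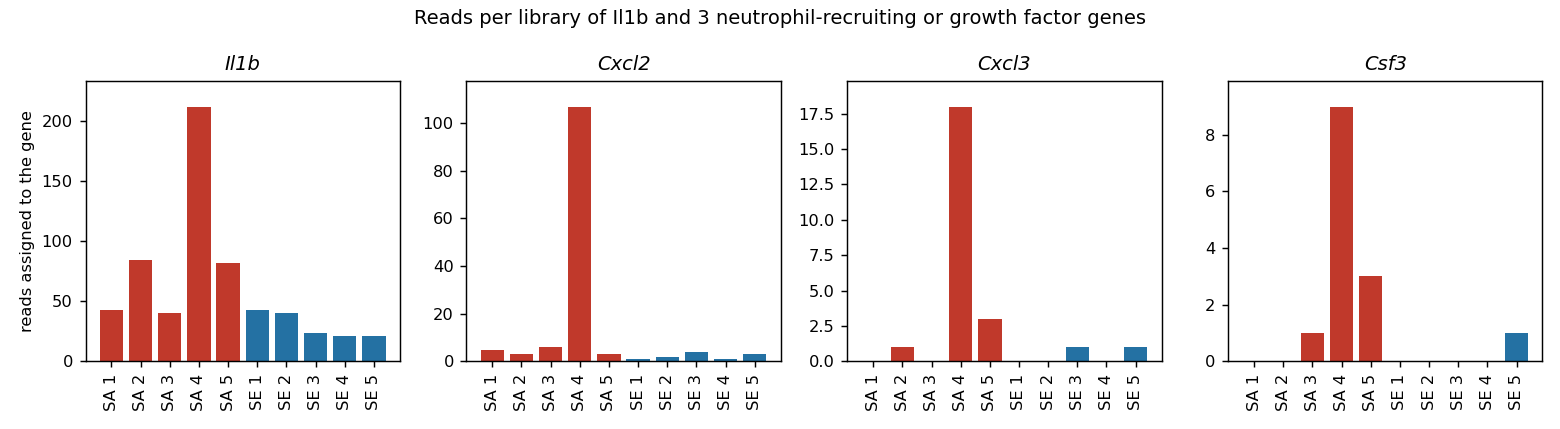
Reads assigned to Il1b, Cxcl2, Cxcl3 and Csf3 in each library, red for SA and blue for SE, each panel with its own axis from 0. SA 4 is the highest bar in all 4 panels, at 212, 107, 18 and 9 reads. Cxcl3 and Csf3 were chosen after their values were seen, and response genes with their highest value in another library are not plotted.

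Markers of cells that can make IL-1 beta were measured beside it. Of 11 neutrophil markers, 5 were tested and edgeR called 0, with a median log2 difference of 0.83 (1.27 without SE 3, 4 and 5). All 5 were positive at an unadjusted edgeR p under 0.05, where 11.1% of all genes passed in either direction. Mmp8 was among the 5 only because its SA libraries passed the count filter. It had 15 to 23 reads in SA, 7 to 9 in SE 1 to 4 and 18 in SE 5, so its direction carries no weight in that count. The median of 0.83 is the value of Mmp8 itself and carries no weight either. The tested markers beside Mmp8 ran from 0.78 (Csf3r) to 1.65 (S100a8). The summed CPM of the 11 ran from 18.3 to 62.3 in SA and from 11 to 23.9 in SE. S100a8 (1.65 ± 0.494, edgeR adjusted p 0.261) and S100a9 (1.47 ± 0.409, adjusted p 0.215), which keratinocytes can also express, had the highest means of the 11 in both groups. Csf3r stood at 0.78 ± 0.236 (adjusted p 0.27). In SE 5 Csf3r was at 2.70 CPM, above S100a8 at 2.06 CPM and S100a9 at 2.56 CPM. The other 6 were below the filter of the test and are all given: over SA and over SE, Ly6g had 1 and 0 reads, Mpo 15 and 13, Retnlg 59 and 34, Camp 26 and 17, Ltf 24 and 10, and Ngp 14 and 1. The 10 monocyte and macrophage markers, all tested, had a median of 0.16 (-0.03 without SE 3, 4 and 5) with 7 above 0 and 0 called (0 at an unadjusted edgeR p under 0.05 too), and summed to 569 to 1072 CPM in SA and 517 to 1399 CPM in SE. The 7 Langerhans and dendritic cell markers were all above 0 with a median of 0.30 (0.12 without SE 3, 4 and 5) and 0 called (2 at an unadjusted edgeR p under 0.05), among them Cd207 at 0.29 ± 0.0735 (adjusted p 0.17). The part of these cells in the Il1b values was not tested, and in whole skin fewer cells of a type and less RNA per cell cannot be told apart.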

How the data were processed

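Whole skin RNA of 5 SA and 5 SE libraries was compared, grouped by sample titles. The deposited counts are whole reads per gene. Per the submitters' processing notes, the authors used HTSeq 0.6.1p1 for them after alignment to GRCm38 with STAR 2.4.2a, with SAMtools also named. Strand setting and annotation release: not given in the sources used here. The 5 rows that name no gene were left out: reads with no feature were 3.06% to 6.59%, ambiguous 3.1% to 3.4% and not unique 23.1% to 26.7% of those listed. The authors' deposited table of DESeq2 results holds log2 fold changes and p-values that entered no test. Its normalized signal was not used. Its log2 fold changes had the sign of the present ones in 206 of 206 genes that it called and that were tested.

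The test was run in edgeR 4.0.16 under R 4.3.3 (filterByExpr, minimum count 10, TMM, prior count 0.125, two-sided quasi-likelihood test, no covariate, Benjamini-Hochberg over 16909 genes). Alternatives used DESeq2 1.42.0, limma voom 3.58.1, other scaling and filters, a replicate block and left-out libraries. The scripts were tested on simulated data. Replicates differed beyond sampling noise (chi-square per degree of freedom 5.1 to 83.9). Exon lengths and positions came from GENCODE M21, and promoters from RefSeq. The members and gene lists were chosen with earlier results of these data known. Genes named were all members, in each list those called plus up to 4 with the smallest p, a few fixed pathway genes, the neutrophil markers below the filter (named after their values were seen), and the 3 most like Il1a and Il1b in pattern, of which 1 is not reported here. Leaving out SE 3, 4 and 5 was chosen after seeing the data.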

Additional observations from a re-analysis of the deposited data

Results flagged for a closer look

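In 126 groups of 5 libraries, 17 held a library whose gap to its nearest neighbour took more than 0.71 of the group's range. Chance gives about 1 in 20 for independent, normally distributed values. These groups come from 60 genes and 3 ratios over the same 10 libraries, so the flags are not independent and their number is no test. Among the members these were Il1b in SA 4 (9.57 CPM) and Pycard in SA 1 (106 CPM). Among response genes they were Cxcl2 in SA 4 (4.83 CPM), Saa3 in SE 2 (1.54 CPM) and Lcn2 in SE 2 (6.72 CPM), and among the rupture genes Ninj1 in SA 2 (25.3 CPM, low). In SA 1 the myeloid genes Adgre1 (34.2 CPM), Csf1r (101 CPM) and Cd74 (429 CPM) and the collagens Col1a1 (11000 CPM) and Col1a2 (11600 CPM) were low, and the cornified envelope gene Lor (962 CPM) was high. SA 1 was thus the library with the highest Pycard and Il1rn and the lowest Il1r1, Casp1 and Gsdmd in SA, beside these shifts in markers. In SE 1 the myeloid genes Ccr2 (75.1 CPM) and Flt3 (7.45 CPM) were high, and in SE 5 Mmp8 (0.823 CPM) and the hair sheath genes Krt27 (405 CPM) and Tchh (1200 CPM) were high.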

How the results depend on the processing

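The count of members called was 0 under edgeR with other scaling or filters, limma voom, each left-out library and without SE 3, 4 and 5, and 1 under DESeq2 (Il1b, 1.65). All genes called numbered 13 under edgeR, 346 under DESeq2, 7 to 225 with 1 library left out (225 without SE 1 and 152 without SE 2) and 41 without SE 3, 4 and 5. List genes called numbered 2 under DESeq2, 0 to 3 with 1 library left out and 2 without SE 3, 4 and 5. Members whose groups did not overlap numbered 0 to 2 with 1 library left out (Il1b without SA 3, where 2.86% of all genes did so, and Il1b and Casp1 without SE 2, where 5.7% did) and 2 without SE 3, 4 and 5 (Il1a and Il1r1, against 14.3%). Some directions turned, none of them of a called member. With 1 library left out, Il1rn ran from -0.0633 to 0.0591, Gsdmd from -0.113 to 0.0692 and Myd88 from -0.0101 to 0.0768, and without SE 3, 4 and 5 Myd88 was at -0.067 and Nlrp3, at 0.50 over all libraries, at -0.197. Il1a, Il1b, Il1r1, Il1r2, Casp1 and Pycard kept their direction in all 17 alternatives. The cause of these shifts was not tested. Same-numbered libraries did not deviate together (r -0.288 to 0.0715), but 5 pairs are too few to exclude a shared origin of libraries with the same number. With a replicate block 10 genes and 0 members were called. Nlrp3 had the fewest reads of the members, 137 over SA and 98 over SE.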
